A study of Mus musculus with 85 samples.

Results

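Ifi44 and Ifi44l are interferon-inducible genes that lie side by side on mouse chromosome 3. They were selected by symbol, 2 genes of the 23608 in the expression tables, after strain differences in untreated Kupffer cells, in BMDMs given PBS and in the allele reads of hybrids had been seen. Strain differences in those untreated and PBS libraries, the allele shares, and differences between strains in a response, which contain them, are therefore given as a description, with no test. Treated libraries were tested against the same controls, so p-values of those comparisons are not independent of the choice. The same holds for ranks of the members among listed genes, in responses and between strains. It may also hold for p-values between strains within LPS, AMLN, NSG or KLA libraries. Both genes were followed across 85 RNA-seq libraries in 30 groups.

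Kupffer cells are the resident macrophages of the liver. They were sorted from untreated male mice of the inbred strains A/J, C57BL/6J and BALB/cJ, with 2 libraries each. Lipopolysaccharide (LPS, 0.1 mg per kg) was injected 2 h before sorting into mice of strain BALB/cJ or C57BL/6J (2 libraries each). The steatohepatitis-inducing AMLN diet was fed for 30 weeks (4 libraries of A/J, 3 of BALB/cJ, 4 of C57BL/6J). NSG hosts, immunodeficient mice of NOD background with the scid mutation and a null Il2rg gene, received busulfan and then blood stem cells of a BALB/cJ or C57BL/6J donor (3 libraries each). The methods describe LPS-injected mice and their controls as both fasted overnight, with controls not injected. Whether the untreated libraries, which serve as controls for LPS, AMLN and NSG here, came from fasted mice is not stated. Graft-derived Kupffer cells in NSG hosts were separated by MHC haplotype. The methods describe the C57BL/6 mice fed the AMLN diet as kept in the laboratory, while the labels call them C57BL/6J. The methods give an age of 8 to 12 weeks for mice in all experiments, without saying whether at the start of a diet or transfer, and grafts were collected 4 months after transfer. Untreated Kupffer cells are labelled as controls with no diet named, and the study speaks of control-diet cells where it sets them beside AMLN. Bone marrow-derived macrophages (BMDMs) of all 3 strains received Kdo2-lipid A (KLA, a defined TLR4 ligand, 100 ng per ml for 2 h) or PBS, with 2 libraries per group. Liver sinusoidal endothelial cells (LSECs, 4 libraries per strain), hepatic stellate cells (4 of A/J, 4 of BALB/cJ, 3 of C57BL/6J) and hepatocytes (2 of A/J, 2 of BALB/cJ, 3 of C57BL/6J) came from untreated mice. CB6F1/J hybrids, from BALB/cJ mothers and C57BL/6J fathers, gave 16 libraries of Kupffer cells (5 LPS, 3 NSG and 4 untreated) and BMDMs (2 KLA and 2 PBS).

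Interferons bind receptors that signal through JAK kinases to the nucleus and switch on a large set of interferon-stimulated genes. IFI44 and its paralogue IFI44L are widely used human markers of this response, and both have been linked to limiting or modulating antiviral defence. In macrophages, ligands of TLR4 such as LPS and KLA lead to interferon-beta, so interferon-stimulated genes follow in a second step.

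In RefSeq on GRCm38.p6 (mm10 coordinates), both genes are on the minus strand. Ifi44 spans chr3:151730922-151749910 and Ifi44l spans chr3:151758737-151762891, with 8826 bases between them. The GENCODE transcript Ifi44-201 has 8 exons and Ifi44l-201 has 3. GENCODE tags Ifi44l as a reference genome error and its transcript as having no found start, and the reference assembly is that of C57BL/6J. Next to the pair, Adgrl4, an adhesion receptor gene of endothelial cells, averaged at most 0.637 TPM (a length-scaled level) in untreated Kupffer cells of the 3 strains, and Ptgfr, a prostaglandin receptor gene, averaged at most 0.122 TPM in any group.

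The 2 upstream stretches are shown because the genes are neighbours that respond to the same stimuli in part of the groups below. Each runs 5′ to 3′ on the gene's own strand, from 150 to 45 bases before the RefSeq start, and capitals mark the match to a motif of interferon-response type in its reverse strand.
Ifi44, chr3:151749955-151750060 (minus strand): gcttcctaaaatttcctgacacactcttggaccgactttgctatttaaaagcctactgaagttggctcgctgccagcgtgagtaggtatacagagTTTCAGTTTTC
Ifi44l, chr3:151762936-151763041 (minus strand): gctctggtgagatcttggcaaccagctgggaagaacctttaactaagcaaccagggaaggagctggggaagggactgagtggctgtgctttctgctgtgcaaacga
Over the 250 bases before each RefSeq start, on both strands, a pair of GAAA blocks with 2 bases of any kind between them was in 978 of 32851 promoters (2.98%) and in neither member. The pair with 3 bases between was in 783 (2.38%) and 1 time upstream of Ifi44, starting 55 bases before its RefSeq start. GENCODE places the start of Ifi44-201 50 bases upstream of that of RefSeq, so the match spans the GENCODE start and its last bases, which end the stretch shown, are in the first GENCODE exon. Among the 30 list genes with a window, from a list of 41 interferon-stimulated genes used below, 11 held the first motif and 5 the second. No match says only that these letters are not in this window of the reference strain. As the Ifi44l transcript has no found start, the window before its annotated start may not be its promoter.

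Totals per library (in M, mega) ran between 5.25 and 42.8 M counts for the 69 parental libraries and between 55.4 and 158 M in the 16 hybrid libraries. Each sorted cell type carried its own markers, with summed TPM of 8 Kupffer genes between 9576 and 18511 in the parental Kupffer groups against 698 or less in BMDMs, 214 or less in LSECs and 162 or less in hepatocytes. Stellate libraries stood apart, with Kupffer sums between 2160 and 6537 in A/J, between 217 and 794 in BALB/cJ and between 1349 and 1875 in C57BL/6J. LSEC libraries also held hepatocyte RNA, and 3 of them had high Alb. BMDM counts are expected counts, while liver counts are raw counts.

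In untreated Kupffer cells, Ifi44 stood at 68.8 and 98.9 TPM in A/J and at 118 and 144 TPM in BALB/cJ, against 5.64 and 3.2 TPM in C57BL/6J. The strains did not overlap with C57BL/6J, and the means were 19.0 times as high in A/J and 29.6 times as high in BALB/cJ. Ifi44l stood at 94.97 and 123 TPM in A/J and at 141 and 158 TPM in BALB/cJ, with 0 counts in both C57BL/6J libraries. Set against a floor of 3 counts over the C57BL/6J group, Ifi44l was at least 645-fold higher in A/J and at least 911-fold higher in BALB/cJ. Whether the gene model tagged as a reference genome error, rather than expression, gives the 0 counts was not tested, here or in any fold against C57BL/6J below. Cultured macrophages also set C57BL/6J apart from the other strains. In PBS BMDMs, Ifi44 measured 164 and 229 TPM in A/J and 219 and 167 TPM in BALB/cJ, against 0.789 and 2.24 TPM in C57BL/6J. Ifi44l measured 91.7 and 150 TPM in A/J and 147 and 116 TPM in BALB/cJ, against a single count over both C57BL/6J libraries, at 0.036 and 0 TPM. The ratio to that count was 8678 in A/J (exact 95% counting interval 1557 to 342819) and 9034 in BALB/cJ (1621 to 356876).

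**Figure D1:**
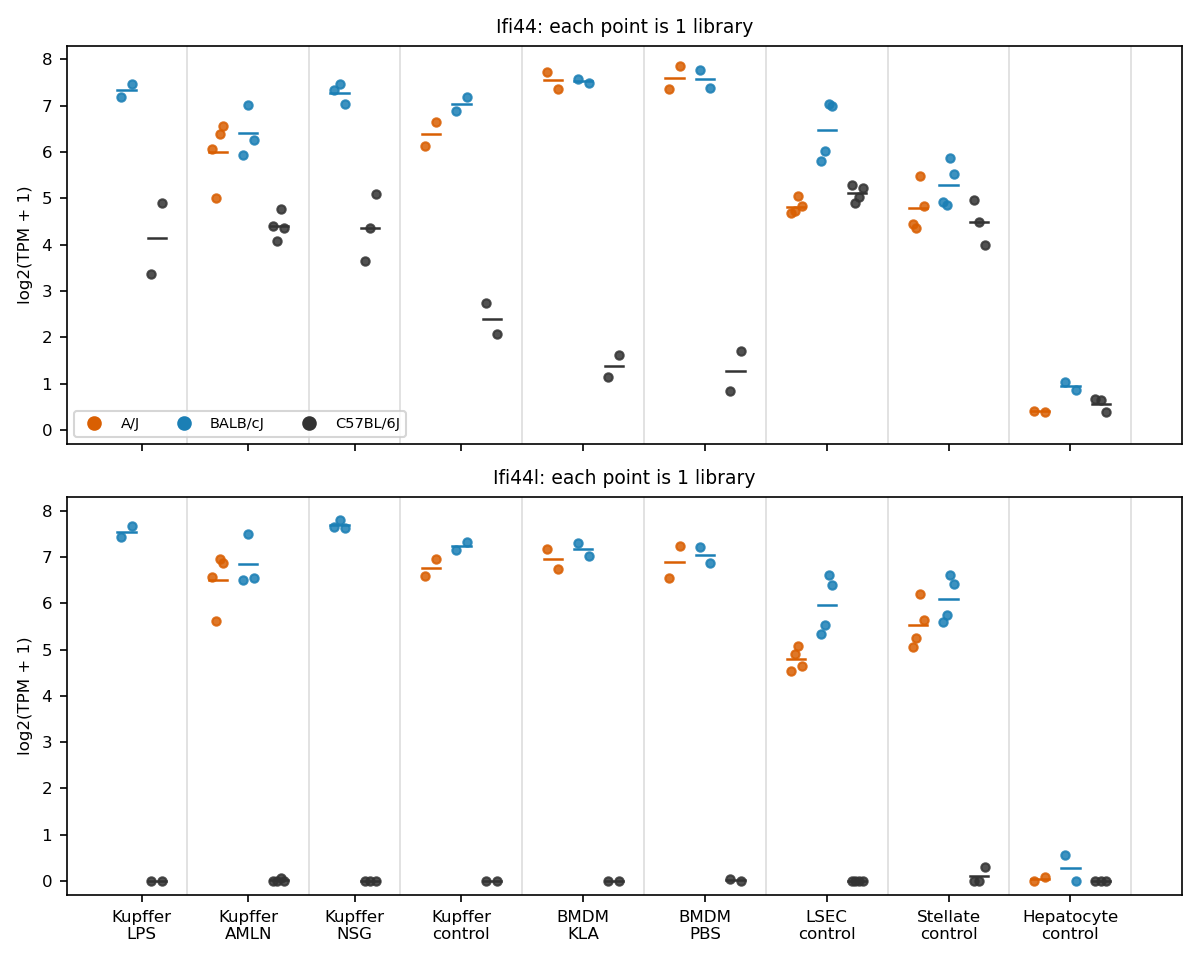
Ifi44 (top) and Ifi44l (bottom) in each of the 69 parental libraries as log2(TPM + 1), by condition and strain, with lines at the mean of the log2 values. Ifi44l lies at or near 0 in every C57BL/6J library, while Ifi44 of C57BL/6J lies at 5.64 TPM or less in untreated Kupffer cells and BMDMs and at 9.37 to 37.8 TPM in LSECs, stellate cells and Kupffer cells after LPS, AMLN or transfer to NSG hosts.

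Ifi44l was at or near 0 in C57BL/6J throughout. Of 25 C57BL/6J libraries with 383 M counts in all, 22 had 0 counts of Ifi44l and the other 3 had 4 counts together. The highest level among them was 0.236 TPM. Outside hepatocytes, the 40 A/J and BALB/cJ libraries had at least 116 counts each and ran between 22.3 and 222 TPM. Hepatocytes held little of either gene in any strain, with at most 1.04 TPM of Ifi44 and 0.48 TPM of Ifi44l, and neither was tested there. In bulk samples, fewer cells of a type and less RNA per cell cannot be told apart. IFI44-family reads that match both genes could be counted with either, and the sources used here do not give how they were treated.

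Ifi44 was not low in all C57BL/6J cells. Over the 25 parental groups its mean was highest in A/J BMDMs given PBS (197 TPM) and lowest in A/J hepatocytes (0.319 TPM). C57BL/6J LSECs (33.6 ± 4.2 TPM, SD, n = 4) and stellate cells (22.2 ± 7.8 TPM, SD, n = 3) stood above untreated C57BL/6J Kupffer cells (4.42 ± 1.7 TPM, SD, n = 2) with no overlap between libraries, and this difference between cell types was not tested. When the groups were ordered by mean, only 4 of 24 steps between neighbours of Ifi44 and 2 of 24 of Ifi44l exceeded their spread. For Ifi44 these included the step down to untreated C57BL/6J Kupffer cells from LPS-treated ones, and the next step down to C57BL/6J BMDMs given KLA. For Ifi44l they were the step down to untreated from LPS-treated BALB/cJ Kupffer cells and the step down to BALB/cJ hepatocytes from A/J LSECs.

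Whether the strain difference held in endothelial cells was asked in LSECs. Their libraries are not among those named above for the choice, though earlier results of these data were known. Ifi44 measured 24.8, 25.3, 31.9 and 27.5 TPM in A/J and 55.2, 64.1, 129 and 127 TPM in BALB/cJ, against 37.8, 28.9, 31.5 and 36.3 TPM in C57BL/6J. BALB/cJ libraries lay above all others, and A/J overlapped with C57BL/6J. A gene was called at an edgeR adjusted p below 0.05, over all genes tested, together with a log2 fold change beyond 1 in size. Against C57BL/6J, Ifi44 was higher in BALB/cJ (log2 fold change 1.49 ± 0.27, SE; edgeR adjusted p = 0.0027), where 3.93% of all genes were called. A/J minus C57BL/6J was -0.24 ± 0.27 (edgeR adjusted p = 0.55, 4.17% of genes called), and A/J lay below BALB/cJ by -1.73 ± 0.27 (edgeR adjusted p = 0.0018, 2.77% called).

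Ifi44l in LSECs kept the C57BL/6J zero, unlike Ifi44. It measured 22.3, 29.1, 32.8 and 23.9 TPM in A/J and 39.2, 45.3, 96.8 and 82.6 TPM in BALB/cJ, against 0 counts in all 4 C57BL/6J libraries. That is at least 330-fold higher in A/J and at least 779-fold higher in BALB/cJ, on the same floor (edgeR adjusted p = 2.8e-05 and 1.1e-05). A/J lay below BALB/cJ by -1.24 ± 0.31 on the log2 scale (edgeR adjusted p = 0.034). That call was lost without any 1 of the 4 A/J libraries or of BALB/cJ replicates 3 and 4 (log2 fold changes between -1.42 and -0.996 over all left-out libraries), and without the 3 libraries with high Alb (edgeR adjusted p = 0.084). Hepatocyte markers summed to between 1171 and 7218 TPM in A/J LSECs, 817 and 8076 in BALB/cJ LSECs and 954 and 2089 in C57BL/6J, and their part in these differences was not tested.

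Other interferon-stimulated genes of LSECs differed in the same direction between A/J and BALB/cJ. Of 41 listed genes, 35 were tested there, and 14 were called lower in A/J relative to BALB/cJ (1.43% of all genes were), with a median of -0.84 over the 35. The median over all genes tested lay between -0.04 and 0.02 in each comparison reported. Among them were Oasl1 (-2.19 ± 0.35), a relative of the oligoadenylate synthases, Oasl2 (-1.89 ± 0.23), Irf7 (-1.85 ± 0.29), a factor that drives type I interferon genes, and the RNA-binding Ifit1 (-1.78 ± 0.26), with Isg15 (-1.54 ± 0.43), a ubiquitin-like modifier gene, and Rsad2 (-1.37 ± 0.21), the viperin gene, also called. Without BALB/cJ replicate 4, 9 were called. Counts with libraries left out, here and below, come without the share of all genes called in those fits. Monocyte and neutrophil markers summed to between 5.81 and 14.4 TPM in A/J LSECs and between 15.9 and 36.1 TPM in BALB/cJ LSECs, with no overlap, and their part was not tested. BALB/cJ minus C57BL/6J gave 5 genes higher (1.90% of all genes were) and a median of 0.40, with Mx2, an antiviral GTPase gene, at 1.53 ± 0.30, Oasl1 at 1.48 ± 0.33, Oasl2 at 1.26 ± 0.22 and Irf7 at 1.26 ± 0.28. Isg15 (0.98 ± 0.42), Ifit1 (0.97 ± 0.25) and Rsad2 (0.09 ± 0.20) were not called. Leaving out BALB/cJ replicate 1 raised that count to 11, leaving out C57BL/6J replicate 1 raised it to 8, and leaving out the 3 libraries with high Alb raised it to 10. A/J minus C57BL/6J gave 2 genes lower (2.36% of all genes were), Ifit3 (-1.29 ± 0.29) and Rsad2 (-1.28 ± 0.21).

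Stellate cells, the retinoid-storing pericytes of the liver, showed a pattern for Ifi44 that passed no test. Ifi44 measured 20.8, 19.5, 43.9 and 27.6 TPM in A/J and 29.3, 28.1, 57.6 and 45.0 TPM in BALB/cJ, against 30.4, 21.4 and 14.8 TPM in C57BL/6J. All 3 strains overlapped. With edgeR, Ifi44 was 0.38 ± 0.36 on the log2 scale for A/J minus C57BL/6J (adjusted p = 0.42, 7.20% of genes called), 0.89 ± 0.37 with BALB/cJ in its place (adjusted p = 0.068, 9.57% called) and -0.51 ± 0.33 for A/J minus BALB/cJ (adjusted p = 0.26, 8.24% called). Without BALB/cJ replicate 1, the BALB/cJ minus C57BL/6J change was called, at 1.03 (edgeR adjusted p = 0.049).

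Ifi44l in stellate cells measured 32.1, 36.8, 72.2 and 48.4 TPM in A/J and 47.4, 52.7, 97.3 and 84.8 TPM in BALB/cJ, against 0, 0 and 0.236 TPM in C57BL/6J. The C57BL/6J group had 2 counts, so the ratio to it was 634 in A/J (exact 95% counting interval 175 to 5240) and 921 in BALB/cJ (255 to 7611), both called (edgeR adjusted p = 1.9e-05 and 1.1e-05). A/J replicate 3 was highest of the A/J libraries in both genes and in the Kupffer marker sum, at 6537 TPM, and the part of Kupffer RNA was not tested. Of the interferon-stimulated list, 39 genes were tested in stellate cells, and 6 were called higher (3.91% of all genes were) and 1 lower (5.66%) in BALB/cJ against C57BL/6J. Isg15 (2.42 ± 0.40), Ifi27l2a (2.30 ± 0.30) and Mx2 (1.43 ± 0.35) were higher and Epsti1 (-2.30 ± 0.39) was lower. Monocyte and neutrophil markers summed to between 297 and 381 TPM in BALB/cJ stellate libraries and between 175 and 247 TPM in those of A/J, against 120 to 149 TPM in those of C57BL/6J, with no overlap, and their part was not tested. A/J minus C57BL/6J gave 0 called genes with edgeR and 0 with DESeq2, while 14 had an unadjusted p below 0.05.

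**Figure D2:**
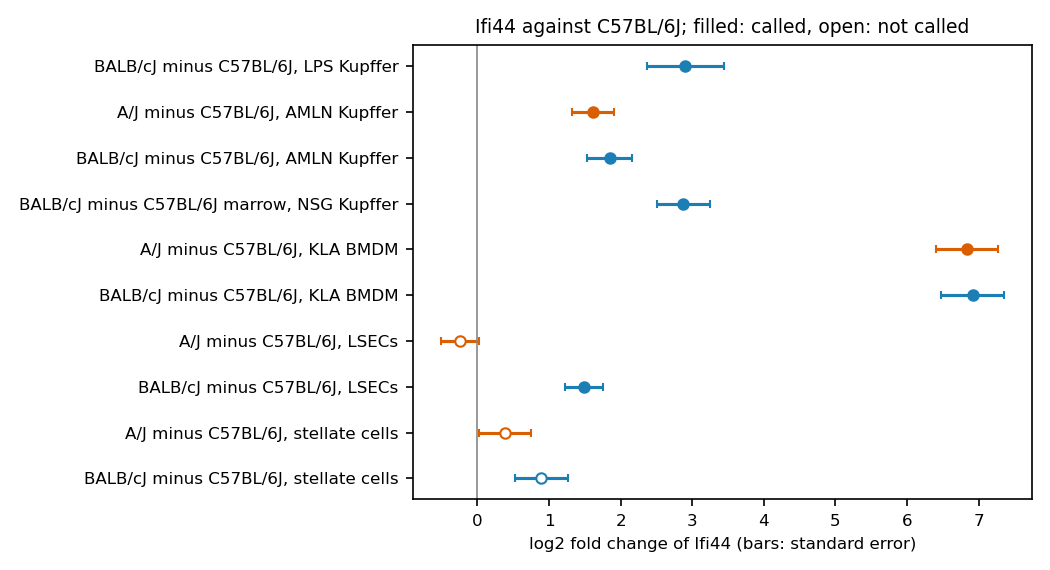
Log2 fold change of Ifi44 in A/J or BALB/cJ over C57BL/6J by edgeR, with standard errors, filled where called. Values run between 1.61 and 6.91 in Kupffer cells and BMDMs, and the 4 contrasts in LSECs and stellate cells lie between -0.24 and 1.49.

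Whether LPS changes the genes in Kupffer cells was asked with 2 libraries per group. If the control libraries came from mice that were not fasted, LPS and fasting cannot be told apart. Ifi44 measured 146 and 175 TPM after LPS and 118 and 144 TPM in controls of BALB/cJ, and the groups did not overlap. In C57BL/6J it measured 9.37 and 28.9 TPM after LPS, against 5.64 and 3.2 TPM in controls. In BALB/cJ the change was 0.75 ± 0.49 on the log2 scale (edgeR adjusted p = 0.23, 31.9% of genes called), and in C57BL/6J Ifi44 rose by 2.71 ± 0.57 (edgeR adjusted p = 0.0050, 38.3% called). With single libraries left out, the C57BL/6J change ran between 1.58 (without C57BL/6J LPS replicate 2) and 3.36 (without C57BL/6J LPS replicate 1), with an edgeR adjusted p of at most 0.037. The difference of the 2 responses, BALB/cJ minus C57BL/6J, was -1.96 ± 0.74 on the log2 scale, a description.

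Ifi44l after LPS remained at 0 counts in C57BL/6J. In BALB/cJ it measured 170 and 202 TPM after LPS and 141 and 158 TPM in controls, a change of 0.77 ± 0.16 that passed the adjusted p (edgeR, 0.0090) and not the fold threshold. LPS-treated BALB/cJ cells held at least 834-fold more Ifi44l than LPS-treated C57BL/6J cells. P-values between strains within LPS may not be independent of the choice of the genes. For Ifi44, BALB/cJ minus C57BL/6J within LPS was 2.90 ± 0.54 (edgeR adjusted p = 0.022, 5.21% of genes called), and it lost its call without any 1 of the 4 BALB/cJ libraries (edgeR adjusted p between 0.051 and 0.063) or with no filter on low values (0.087), with log2 fold changes between 2.27 and 4.06 over all left-out libraries.

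The members moved less with LPS than most of the interferon-stimulated list did. In BALB/cJ, 31 of 41 listed genes were called higher (15.6% of all genes were) with a median of 1.94, and 34 of 41 exceeded each member. In C57BL/6J, 39 of 41 were called higher (18.7% of all genes were) with a median of 3.38, and 28 of 41 exceeded Ifi44. Examples are Ifit1 (6.91 ± 0.52 in BALB/cJ and 9.25 ± 0.58 in C57BL/6J), Isg15 (5.27 ± 0.45 and 7.78 ± 0.53) and Rsad2 (5.72 ± 0.78 and 7.61 ± 0.85), each with the BALB/cJ value given before the C57BL/6J value. Irf7 changed by 0.71 ± 0.27 in BALB/cJ, which was not called, and rose by 1.73 ± 0.27 in C57BL/6J. Within LPS, 0 of 41 listed genes were called between BALB/cJ and C57BL/6J with edgeR, while 22 had an unadjusted p below 0.05 and DESeq2 called 12 lower in BALB/cJ (edgeR called 2.61% of all genes lower). Without C57BL/6J LPS replicate 1, edgeR did call listed genes lower. Shares of all genes called in that fit and by DESeq2 are not given here. Of 16 listed interferon ligands, receptors and signal genes, 11 were tested. The kinase gene Jak2 (3.70 ± 0.15 in BALB/cJ), the factor Irf1 (2.06 ± 0.43) and the signalling inhibitor Socs1 (3.36 ± 0.70) were called higher and Ifngr1, an interferon-gamma receptor gene, lower (-1.39 ± 0.24), beside 16.2% of all genes called lower there and 19.5% in C57BL/6J. The same 4 genes were called in C57BL/6J in the same directions, and all 4 were named after their values were seen.

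Markers of other cells moved with LPS too. The sum of 6 monocyte and neutrophil genes was 157 to 169 TPM after LPS and 12.4 to 28.1 TPM in controls of BALB/cJ, where 3 of the 6 were at 0, and 273 to 281 TPM after LPS and 117 to 171 TPM in controls of C57BL/6J. Hepatocyte markers summed to between 298 and 543 TPM after LPS and between 113 and 246 TPM in controls of BALB/cJ, and to between 586 and 1471 TPM after LPS and between 157 and 431 TPM in controls of C57BL/6J. T and B cell markers summed to between 5.91 and 7.18 TPM after LPS and between 0.589 and 0.721 TPM in controls of BALB/cJ, and to between 6.97 and 10.0 TPM after LPS and between 3.3 and 5.4 TPM in controls of C57BL/6J. None of these 3 sums overlapped between LPS and control libraries of a strain, and their part in the results was not tested. The sum of 8 Kupffer genes was lower after LPS, with no overlap. In BALB/cJ it was 11236 to 12141 TPM after LPS and 15617 to 16874 TPM in controls. In C57BL/6J it was 9576 to 11717 TPM after LPS and 16318 to 17049 TPM in controls, and its part was not tested either.

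In hybrid Kupffer cells, which carry 1 allele of each parent, both genes rose with LPS. Ifi44 ran between 84.6 and 157 TPM in 5 LPS libraries, with a median of 128, and between 55.1 and 66.9 TPM in 4 controls. Ifi44l ran between 120 and 175 TPM, with a median of 151, after LPS and between 53.8 and 68.4 TPM in controls. No LPS library overlapped with a control library in either gene. On perfect reads summed over the 2 genomes, where most reads count 2 times, Ifi44 rose by 1.84 ± 0.14 (edgeR adjusted p = 9.6e-08) and Ifi44l by 2.07 ± 0.10 (edgeR adjusted p = 1.9e-09), beside 39.4% of genes called. On all reads mapped to the C57BL/6J genome, an alternative chosen after seeing the data, the changes were 1.73 and 2.04. Of 41 listed genes 38 were called higher (18.7% of all genes were), with a median of 2.76, and 31 of 41 exceeded Ifi44 and 28 exceeded Ifi44l. Ifit1 rose by 8.13 ± 0.21 and Irf7 by 1.53 ± 0.15. Hybrid levels are from other tables and were mapped otherwise than parental ones, so the response of hybrids was not tested against those of the parents.

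**Figure D3:**
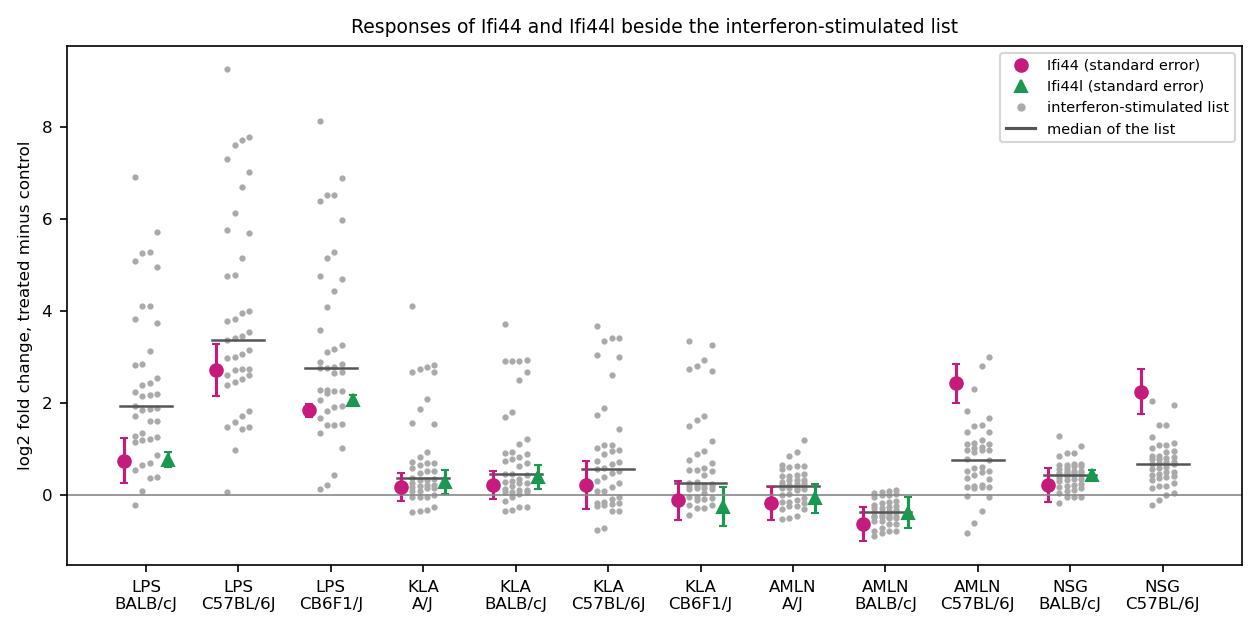
Log2 fold change of Ifi44 (circles) and Ifi44l (triangles), treated minus control, with standard errors, beside every tested gene of the interferon-stimulated list (grey points) and its median (line). Ifi44l of C57BL/6J is not drawn, as both groups have 3 or fewer counts. In C57BL/6J cells of AMLN-fed mice and NSG hosts, Ifi44 lies at 2.42 and 2.25, near the top of the list. That rank is not independent of its choice. With KLA the members lie near 0.

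KLA did not give a called change of either gene in BMDMs of any strain. Ifi44 measured 211 and 164 TPM with KLA and 164 and 229 TPM with PBS in A/J, and 190 and 179 TPM with KLA and 219 and 167 TPM with PBS in BALB/cJ. In C57BL/6J it measured 1.21 and 2.06 TPM with KLA and 0.789 and 2.24 TPM with PBS. The groups overlapped in every strain. The log2 changes with KLA were 0.18 ± 0.30 in A/J cells, 0.21 ± 0.30 in BALB/cJ cells and 0.22 ± 0.52 in C57BL/6J (edgeR adjusted p = 0.65, 0.58 and 0.72), where 13.1%, 14.4% and 17.2% of genes were called. As a description, the A/J response minus that of C57BL/6J was -0.05 ± 0.60 and the BALB/cJ response minus that of C57BL/6J was -0.01 ± 0.59. Ifi44l measured 142 and 106 TPM with KLA and 91.7 and 150 TPM with PBS in A/J (log2 change 0.28 ± 0.26), and 156 and 129 TPM with KLA and 147 and 116 TPM with PBS in BALB/cJ (0.39 ± 0.26).

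C57BL/6J was again the lowest strain under KLA. The KLA libraries are not those given PBS, but cells of a donor were seeded into multiwell plates before treatment. Whether KLA and PBS wells shared donor mice is not stated. The strain difference under PBS was seen before the genes were chosen, so the p-values between strains under KLA may not be independent of that choice. Ifi44 was higher in A/J by 6.83 ± 0.44 and in BALB/cJ by 6.91 ± 0.44 than in C57BL/6J (edgeR adjusted p = 5.6e-06 and 8.1e-06, with 8.08% and 5.69% of genes called). Ifi44l had 0 counts in both C57BL/6J libraries, and was at least 1952-fold higher in A/J and at least 2194-fold higher in BALB/cJ. A/J and BALB/cJ differed by -0.08 ± 0.30 for Ifi44 and -0.30 ± 0.26 for Ifi44l (edgeR adjusted p = 0.85 and 0.37, with 7.19% of genes called).

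Other interferon genes did move with KLA. The ligand gene Ifnb1, which encodes interferon-beta, averaged 37.6 TPM with KLA in A/J cells, 6.74 in BALB/cJ cells and 6.79 in C57BL/6J cells, against 0, 0.026 and 0 TPM with PBS, and was called in all 3 strains, a gene named after its values were seen. Of 12 tested ligands, receptors and signal genes, Ifnb1, Jak2, Irf1 and Socs1 were called higher in each strain. Of 41 interferon-stimulated genes 10 were called higher in A/J cells, 11 in BALB/cJ cells and 13 in C57BL/6J, beside 7.43%, 8.84% and 9.61% of all genes, with medians of 0.36, 0.45 and 0.56. Rsad2 rose by 4.10 ± 0.41 in A/J cells, 3.72 ± 0.40 in BALB/cJ cells and 3.41 ± 0.40 in C57BL/6J. Isg15 rose by 2.08 ± 0.35, 2.67 ± 0.36 and 3.00 ± 0.38 in the same order, while Irf7 changed by 0.15 ± 0.33, 0.08 ± 0.33 and 0.26 ± 0.33 in the same strains and was not called. Against C57BL/6J within KLA, 13 of 41 listed genes were higher in A/J (3.27% of all genes were) and 16 in BALB/cJ (3.58%). Of the list, 0 of 41 exceeded either member, a rank that is not independent of their choice. Without C57BL/6J KLA replicate 1 the A/J count was 5, and without A/J KLA replicate 1 it was 8.

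In hybrid BMDMs, Ifi44 measured 48.3 and 96.2 TPM with KLA and 84.3 and 104 TPM with PBS, and Ifi44l 29.6 and 61.9 TPM with KLA and 65.2 and 69.2 TPM with PBS. KLA replicate 1 was the lowest library for both genes. The log2 changes were -0.11 ± 0.42 and -0.25 ± 0.43 (edgeR adjusted p = 0.85 and 0.68, 12.5% of genes called), while 9 of 41 listed genes were called higher (8.28% of all genes were). That count was higher without KLA replicate 1 and lower without PBS replicate 1 or PBS replicate 2, in fits that leave 1 library in a group. Shares of all genes called in those fits are not given here.

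Kupffer cells of AMLN-fed mice were set against the untreated libraries that also served LPS and NSG comparisons, and Ifi44 was called higher in C57BL/6J. The age of the controls at sorting was not given, nor whether they were fasted. Diet, age, fasting and, for C57BL/6J, the stock of mice therefore cannot be told apart in this comparison. Ifi44 measured 20.1, 16.0, 26.3 and 19.5 TPM in AMLN-fed C57BL/6J mice, against 5.64 and 3.2 TPM in controls, with no overlap. It rose by 2.42 ± 0.42 (edgeR adjusted p = 0.0012, 11.6% of genes called). In A/J, Ifi44 measured 65.6, 31.2, 82.3 and 93.0 TPM with AMLN and 68.8 and 98.9 TPM in controls (-0.18 ± 0.35; edgeR adjusted p = 0.78, 4.88% called). In BALB/cJ it measured 60.3, 128 and 75.8 TPM with AMLN and 118 and 144 TPM in controls (-0.64 ± 0.37; edgeR adjusted p = 0.41, 5.20% called). The groups overlapped in A/J and BALB/cJ. Whether the strains' responses differ was not tested.

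Ifi44l had 1 count in the 4 AMLN libraries of C57BL/6J and 0 in its controls. It measured 94.1, 48.0, 123 and 116 TPM with AMLN and 94.97 and 123 TPM in controls of A/J (-0.07 ± 0.33), and 89.8, 179 and 91.8 TPM with AMLN and 141 and 158 TPM in controls of BALB/cJ (-0.38 ± 0.34). Among AMLN libraries, replicate 2 was the lowest in A/J and the highest in BALB/cJ for both genes. Between strains within AMLN, Ifi44 was higher than in C57BL/6J by 1.61 ± 0.30 in A/J and by 1.85 ± 0.31 in BALB/cJ (edgeR adjusted p = 0.0015 and 0.00058, with 10.2% and 14.7% of genes called). A/J and BALB/cJ differed by -0.23 ± 0.31 (edgeR adjusted p = 0.70, 3.97% called). P-values between strains within AMLN may not be independent of the choice of the genes. The ratio of Ifi44l to the single C57BL/6J count was 6861 in A/J (exact 95% counting interval 1231 to 271043) and 8598 in BALB/cJ (1542 to 339650).

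Among the interferon-stimulated genes, 11 of 40 tested were called higher with AMLN in C57BL/6J (6.53% of all genes were), with a median of 0.77, and only Isg15 (2.99 ± 0.65) and Xaf1 (2.81 ± 0.38), which encodes an XIAP-binding protein, exceeded Ifi44. Oasl1 (2.31 ± 0.48) and Ifit1 (1.83 ± 0.40) were also called, and Rsad2 (0.94 ± 0.33) and Irf7 (0.59 ± 0.31) were not. That count was 1 without C57BL/6J control replicate 2, where Ifi44 remained called (log2 fold changes of Ifi44 over all left-out libraries between 2.09 and 2.87, with an edgeR adjusted p of at most 0.030). The rank of Ifi44 is not independent of its choice, which drew on the same controls. With edgeR, 0 of 40 were called in A/J and 0 in BALB/cJ, with 4 and 5 at an unadjusted p below 0.05, and DESeq2 called 1 in A/J and 0 in BALB/cJ. Within AMLN, 3 listed genes were lower in A/J (3.38% of all genes were) and 9 in BALB/cJ (5.50%) relative to C57BL/6J, the opposite direction to both members. Xaf1 was lower by -1.97 ± 0.27 in A/J and by -2.20 ± 0.31 in BALB/cJ. The A/J count was 1 without A/J replicate 2 or without C57BL/6J replicate 3, and 6 without A/J replicate 1, and the BALB/cJ count was 4 without BALB/cJ replicate 1. Among other-cell markers in C57BL/6J, the plasmacytoid dendritic cell sum was 4.19 to 9.03 TPM with AMLN and 0.64 to 1.07 TPM in controls, and the T and B cell sum 8.94 to 27.0 TPM with AMLN and 3.3 to 5.4 TPM in controls, with no overlap. The monocyte and neutrophil sum was 97.4 to 148 TPM with AMLN and 117 to 171 TPM in controls. The Kupffer sum of C57BL/6J was 9978 to 13449 TPM with AMLN and 16318 to 17049 TPM in controls, with no overlap. Between strains, LSEC markers summed to between 247 and 896 TPM in AMLN libraries of A/J, 610 and 2365 in those of BALB/cJ and 109 and 187 in those of C57BL/6J. Erythroid markers summed to between 260 and 443 TPM in AMLN libraries of A/J, 609 and 684 in those of BALB/cJ and 2.14 and 8.78 in those of C57BL/6J, where controls had 35.5 and 37.4, and the part of these markers in the results was not tested.

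Kupffer cells of NSG hosts share the host but differ in donor strain. Ifi44 measured 160, 175 and 130 TPM in BALB/cJ grafts, against 11.5, 19.4 and 33.1 TPM in C57BL/6J grafts. The grafts did not overlap, and BALB/cJ lay higher by 2.88 ± 0.37 (edgeR adjusted p = 0.0024, 4.05% of genes called). Ifi44l measured 200, 222 and 196 TPM in BALB/cJ grafts, against 0 counts in all 3 C57BL/6J grafts. That is at least 1767-fold higher in BALB/cJ (edgeR adjusted p = 2.4e-11). The strain difference in untreated Kupffer cells was seen before the genes were chosen. P-values between grafts may therefore not be independent of that choice. Of 41 listed interferon-stimulated genes 2 were called higher in BALB/cJ grafts (1.75% of all genes were), Oas3 (1.18 ± 0.19) and Mx2 (1.09 ± 0.32), and the count ran between 0 and 5 when single libraries were left out, 0 without C57BL/6J replicate 1, 1 without C57BL/6J replicate 2 or BALB/cJ replicate 3, 4 without BALB/cJ replicate 1 and 5 without C57BL/6J replicate 3. No listed gene exceeded either member, a rank that is not independent of their choice. T and B cell markers summed to between 46.9 and 155 TPM in BALB/cJ grafts and between 169 and 299 TPM in C57BL/6J grafts, with no overlap, and their part was not tested.

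Set against untreated cells of the same strain, C57BL/6J grafts held more Ifi44, at 11.5, 19.4 and 33.1 TPM in NSG hosts against 5.64 and 3.2 TPM in controls (2.25 ± 0.49; edgeR adjusted p = 0.011, 8.68% of genes called). That call was lost without C57BL/6J control replicate 2 (log2 fold change 1.91, edgeR adjusted p = 0.088). In BALB/cJ the change was 0.22 ± 0.38 for Ifi44 (edgeR adjusted p = 0.74, 6.77% called) and 0.44 ± 0.11 for Ifi44l (edgeR adjusted p = 0.015, below the fold threshold). Host, conditioning, time after transfer and any fasting of the controls cannot be told apart in these comparisons. They share their controls with those for LPS and AMLN, so their values are given only side by side.

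In C57BL/6J grafts, 9 of 41 listed genes were called higher than in controls (6.02% of all genes were), with a median of 0.68, and 0 of 41 exceeded Ifi44. They include Isg15 (2.05 ± 0.52), Ifit1 (1.95 ± 0.23) and the GTPase gene Ifi47 (1.53 ± 0.24), while Irf7 (0.69 ± 0.19) and Rsad2 (0.51 ± 0.28) were not called. The rank of Ifi44 is not independent of its choice, which drew on the same controls. Without control replicate 2 the count was 3, and without NSG replicate 3 it was 5. In BALB/cJ grafts 2 were called higher (5.01% of all genes were), among them Zbp1 (1.07 ± 0.20), which encodes a nucleic acid sensor, and 6 were called without BALB/cJ control replicate 2, and 1 without BALB/cJ control replicate 1 or NSG replicate 2. T and B cell markers summed to between 169 and 299 TPM in C57BL/6J grafts and between 3.3 and 5.4 in controls, and plasmacytoid dendritic cell markers to between 5.92 and 6.10 in grafts and between 0.64 and 1.07 in controls. Kupffer markers summed to between 13520 and 15306 TPM in C57BL/6J grafts and between 16318 and 17049 TPM in controls. In BALB/cJ the same sum was 17078 to 18511 TPM in grafts and 15617 to 16874 TPM in controls. The part of these markers in the results was not tested.

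How the 2 alleles share the RNA was read from hybrid libraries, using reads that span a variant between the strains. The BALB/cJ allele held 73.3 ± 0.51% of Ifi44 reads in untreated Kupffer cells (SD, n = 4), 74.9 ± 0.77% after LPS (n = 5), 63.7 ± 2.0% in NSG hosts (n = 3), 78.8 ± 0.97% in PBS BMDMs (n = 2) and 81.4 ± 3.5% in KLA BMDMs (n = 2). Between 1028 and 5292 reads per library were on the BALB/cJ allele and between 272 and 1479 on the C57BL/6J allele. For Ifi44l the BALB/cJ allele held 93.7 ± 1.5% in untreated Kupffer cells, 93.6 ± 3.8% after LPS, 95.3 ± 1.1% in NSG hosts, 91.5 ± 0.20% in PBS BMDMs and 88.3 ± 2.8% in KLA BMDMs. Here between 180 and 1602 reads were on the BALB/cJ allele and between 28 and 158 on the C57BL/6J allele. Read counts are in steps of 0.5 and intervals cover counting error only.

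These shares stand beside those of the parents. Of the summed mean TPM of BALB/cJ and C57BL/6J Kupffer cells, BALB/cJ took 96.7% of Ifi44 in controls, 89.3% after LPS and 87.9% in NSG hosts, and 99.2% and 99.1% in BMDMs given PBS and KLA. Each is above the hybrids' share for the BALB/cJ allele. For Ifi44l it took 100% in Kupffer cells. Hybrid Kupffer cells averaged 62.8 TPM of Ifi44 on the C57BL/6J genome, and 16.8 TPM of that fell to the C57BL/6J allele by its read share, beside 4.42 TPM in C57BL/6J mice. For Ifi44l, 3.8 of 60.9 TPM fell to the C57BL/6J allele, beside 0 counts in C57BL/6J mice. In the same hybrid cells Ifi202b, of a family with near-identical copies and also at 0 counts in C57BL/6J Kupffer cells, had 51.2% of its variant reads on the C57BL/6J allele. How far reads of Ifi44 and Ifi44l were assigned to the wrong allele was not tested, and the shares depend on that assignment.

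**Figure D4:**
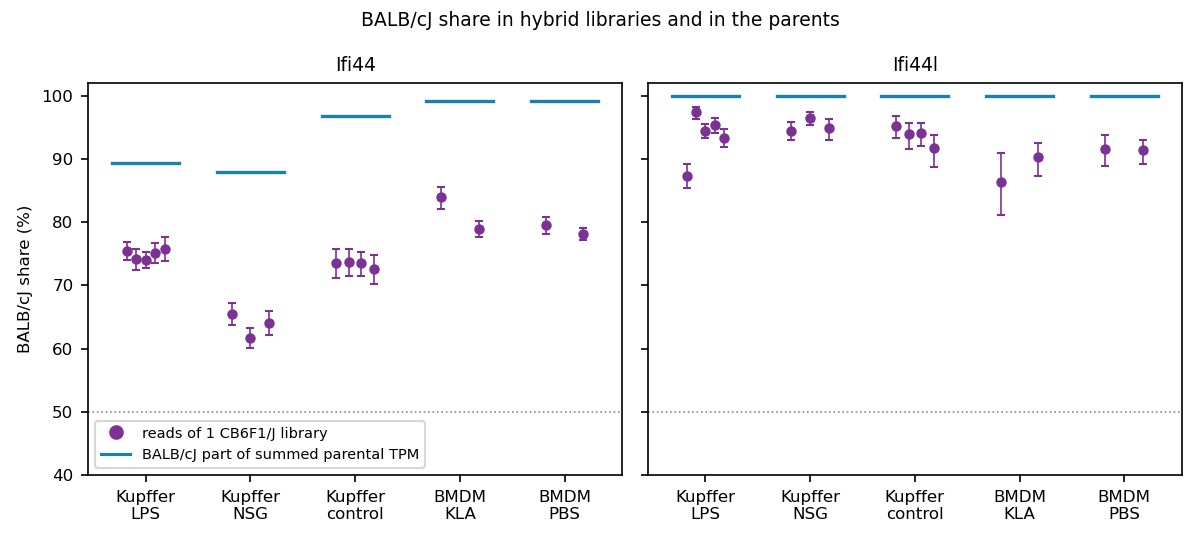
BALB/cJ share of variant-spanning reads in each CB6F1/J library (points, with exact 95% binomial intervals) and the BALB/cJ part of the summed parental mean TPM (lines), in percent. Hybrid Ifi44 shares lie between 61.6 and 83.9% and hybrid Ifi44l shares between 87.4 and 97.4% in Kupffer cells, all above the dotted line at 50%.

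Most genes had an even split. In untreated hybrid Kupffer cells the median BALB/cJ share was 49.8% over 3272 genes of the autosomes that averaged 10 or more variant reads and over 8 TPM. There, 27 genes stood above Ifi44 and 6 above Ifi44l. In NSG hosts 120 of 3013 genes stood above Ifi44 and 9 above Ifi44l. With LPS the Ifi44 share lay 1.62 percentage points above that of controls (74.9% and 73.3%), with no overlap of the 5 LPS and the 4 control libraries. The Ifi44l share differed by -0.14 points. On perfect reads, most of which match both genomes, the shift of the Ifi44 share was 0.358 points. Shares in LPS libraries of Ifi44l spanned 87.4 to 97.4%, a wider spread than the shift seen for Ifi44.

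The 2 members were not held at the same ratio in all cells, as seen after the values were known. Where both were present, in A/J and BALB/cJ, Ifi44l over Ifi44 in TPM was 1.74 ± 0.14 in stellate cells (SD, n = 8), 1.32 ± 0.14 in Kupffer cells (n = 16), 0.845 ± 0.17 in LSECs (n = 8) and 0.681 ± 0.074 in BMDMs (n = 8). All stellate libraries stood above all other libraries, and all BMDM libraries stood below all Kupffer libraries. In hybrids the ratio was 1.22 ± 0.12 in LPS-treated Kupffer cells (n = 5), 0.939 ± 0.069 in NSG hosts (n = 3) and 0.970 ± 0.044 in untreated ones (n = 4). Groups were compared without a test, and BMDM counts are of another kind than liver counts.

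**Figure D5:**
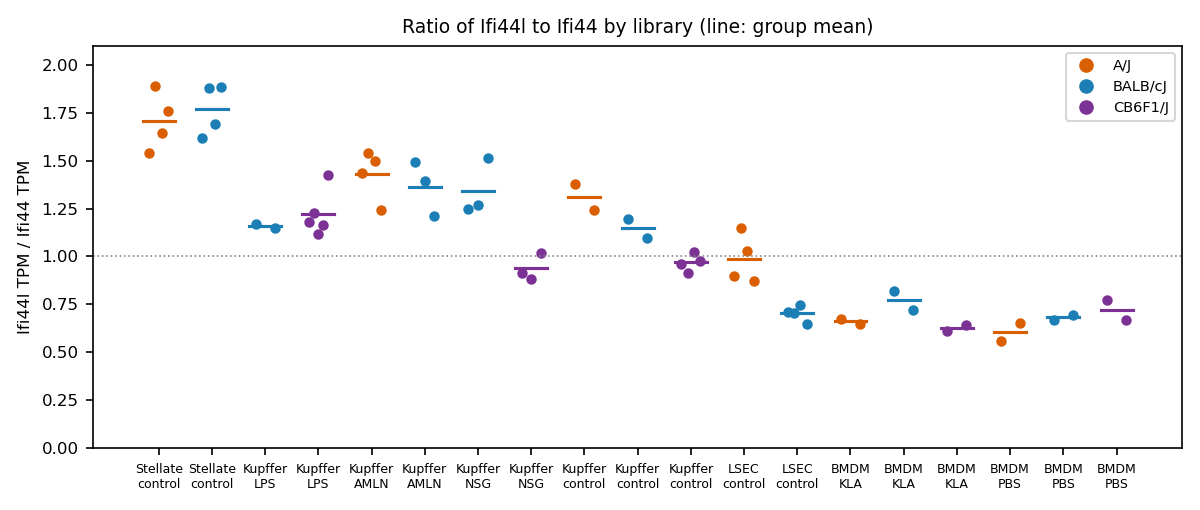
Ratio of Ifi44l TPM to Ifi44 TPM in each A/J, BALB/cJ and CB6F1/J library, with lines at group means and a dotted line at 1. The 8 stellate libraries lie between 1.54 and 1.89, and the 8 parental BMDM libraries between 0.56 and 0.82.

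Across the 25 parental group means, log2(TPM + 1) of Ifi44 was most like Ifi202b (Pearson r = 0.845), Ifi44l (0.844), Gatm (0.826), Tor3a (0.818) and Trim34b (0.813) among 11922 genes. Ifi44l was most like Ifi202b (0.987), Trim34b (0.924), H2-Q1 (0.916), Cacna1a (0.901) and Tmem181c-ps (0.899). The groups share strains, cell types and controls, so these are descriptions. The median r of the interferon-stimulated list was 0.61 with Ifi44 and 0.38 with Ifi44l, beside 0.27 and 0.18 over all genes. Ifi202b, an interferon-inducible gene of a family with near-identical copies, had 94.4 TPM in A/J and 157 TPM in BALB/cJ Kupffer cells and 0 in C57BL/6J, and its counts are uncertain for that reason. Cacna1a, a calcium channel gene, had 36.6 TPM in A/J and 47.4 TPM in BALB/cJ Kupffer cells and 0.129 in C57BL/6J.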

How the data were processed

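RNA-seq was measured in 69 parental and 16 hybrid libraries, poly(A) selected and dUTP marked. The authors mapped reads with STAR to strain genomes built on mm10 and counted exon reads with HOMER, with no versions given in the sources used here. The deposited counts of liver cells are raw counts. Those of BMDMs and hybrids are expected counts, deposited in steps of 0.5 and rounded here before tests. The deposited TPM tables sum to between 0.501 and 0.596 M (mega) over the parental libraries. Of the 20 files, 6 were not used, and 162 per-sample columns were left out. Columns of comparisons made by the authors were not used.

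Tests used edgeR 4.0.16 in R 4.3.3 (quasi-likelihood, TMM, robust) on genes passing filterByExpr that also averaged over 8 TPM in 1 group or more, with Benjamini-Hochberg adjustment over all genes tested. There were 32 contrasts in 9 fits. Alternatives were DESeq2 1.42.0, RLE scaling, other filters, the replicate number as a block and leaving out each library. Counts of called list genes under these alternatives are given without the share of all genes called there. Scripts were tested on simulated data. Allele shares use variant-spanning reads, with exact Clopper-Pearson intervals. Python 3.11.15, numpy 2.4.6, pandas 2.3.3 and scipy 1.17.1 were used. The members and lists were chosen with earlier results of these data known. Named genes are both members, the 4 called list genes with the largest change in a comparison, Irf7, Isg15, Ifit1 and Rsad2, the 5 genes most alike each member and the neighbours on the chromosome. Interferon ligands, receptors and signal genes were named after their values were seen. A gene that this rule would name is not reported here. The study gives 2 mice per group for LPS RNA-seq and for BMDMs. For the other groups neither its methods nor the labels tie each library to an animal, so those p-values rest on library-to-library spread, which may be technical. No pair of replicates was a duplicate (lowest chi-square per degree of freedom 4.09 over 70 pairs).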

Additional observations from a re-analysis of the deposited data

Results flagged for a closer look

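Of 28 sets of values with 4 to 10 libraries in a group, 1 held a library far from the others. Ifi44l in Kupffer cells of AMLN-fed C57BL/6J mice stood at 0.05 TPM in replicate 3, a single count, while the other 3 libraries had 0. Chance marks about 1 in 20 groups of normally distributed values, but a group with counts in only 1 library is always marked.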

How the results depend on the processing

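Of 48 results with a test for the members, 44 kept their call under every alternative run, and 46 did so under every alternative other than leaving out a library. Ifi44l between A/J and BALB/cJ LSECs was -1.24 with no filter on low values (edgeR adjusted p = 0.068) and -1.36 without the 3 LSEC libraries with high Alb (0.084), and ran between -1.42 and -0.996 with single libraries left out. Ifi44 between BALB/cJ and C57BL/6J was 2.95 after LPS with no filter (edgeR adjusted p = 0.087), and ran between 2.27 and 4.06 with single libraries left out. The same range was 0.668 to 1.17 for Ifi44 between BALB/cJ and C57BL/6J stellate cells, -2.63 to -0.843 for the difference of the LPS responses (a description), 1.58 to 3.36 for Ifi44 with LPS in C57BL/6J and 1.79 to 2.70 for C57BL/6J grafts against controls. The cause was not tested.

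On perfect reads, most of which match both genomes, the BALB/cJ share of Ifi44 was 54.1% in untreated Kupffer cells, 54.5% after LPS, 56.8% in PBS BMDMs and 57.3% in KLA BMDMs, and that of Ifi44l 54.5%, 54.7%, 54.3% and 53.8%. The LPS shift of the Ifi44 share was then 0.358 points. With a pseudocount of 0.1, 3 of the 5 genes most like Ifi44 stayed in the list.

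Of 123 same-numbered pairs of libraries, 50 correlated above 0.1 (range -0.52 to 0.65). Between groups of 2 libraries both pairs give the same value, and differently numbered pairs were not computed. Whether replicate numbers pair libraries is therefore not known. With the replicate number as a block, 0 of 48 member results changed call, with Ifi44 at 2.57 for LPS and 2.26 for AMLN in C57BL/6J. Counts limit Ifi44l in C57BL/6J, where a fold is a bound at 3 counts for groups with 0 counts and a ratio to 1 or 2 counts for the others.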
